A study of Mus musculus with 9 samples.

Results

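A set of 10 cardiac genes was followed through 9 mouse hearts: the natriuretic peptide genes Nppa and Nppb, and the stress genes Acta1, Ankrd1, Ctgf, Uchl1, Rcan1, Xirp1, Xirp2 and Fhl1. They were taken by symbol from the deposited read count table, where all 10 of 10 symbols were found among 23457 rows, and they were read beside the deposited FPKM table (fragments per kilobase, scaled to depth). All 10 were among the 12640 genes with enough reads to test. The hearts came from adult C57BL/6J mice, 4 labelled as germline knockouts of Parkin, an E3 ubiquitin ligase of mitochondrial quality control (KO), and 5 labelled wild type (WT). No further allele or treatment is named in the labels for either group. The tissue is labelled as the entire heart, whereas the labels' protocols describe RNA from frozen ventricular apices. Each library is labelled as 1 heart, but nothing states that the animals were raised or handled apart, so p-values measure only the spread between these samples.

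Natriuretic peptides are hormones that heart muscle releases when its wall is stretched, and they act through guanylyl cyclase receptors and cyclic GMP to promote salt loss and vasodilation. In the adult ventricle their genes are normally low, and their return, together with that of skeletal muscle actin, belongs to what is called the fetal gene programme of the stressed myocardium. The other genes sit at neighbouring places in the same cells: the sarcomere and its stretch sensors, the intercalated disc, calcineurin signalling and the matrix.

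The gene that the labels name as knocked out, listed as Park2, was counted first. It had 82, 53, 54 and 37 reads in KO1 to KO4, against 74, 14, 8, 44 and 16 reads in WT1 to WT5. On the FPKM scale these were 1.68, 1.29, 1.10 and 1.01 in KO hearts, against 1.16, 1.03, 0.555, 1.004 and 0.462 in WT hearts. Park2 was thus no lower in the hearts labelled KO, with a log2 fold change of 0.06 ± 0.26 (SE) and an adjusted p of 0.862 by edgeR. The sources used here do not give which part of the gene was removed, and reads summed over a gene do not check the loss of part of it. Every direction below rests on the labels alone.

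The libraries differed in ways that followed the labels. Assigned reads were 11637206 to 15777844 in KO hearts and 4415183 to 20827699 in WT hearts, with WT2 and WT3 the shallowest. Mitochondrially encoded genes took 10.04% to 15.4% of reads in KO hearts and 32.6% to 58.2% in WT hearts. The slope of expression against transcript GC content, in log2 units per 10 percentage points, was 0.15 to 0.63 in KO hearts and -0.39 to -0.19 in WT hearts. Genotype and these library traits cannot be told apart, so fold changes are given as fitted and after the trends with GC content and transcript length had been removed within each heart, called the correction here. After it Park2 had a log2 fold change of 0.82 and was called higher in KO hearts (adjusted p = 0.0158, edgeR).

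Of the 10 genes, 6 were called higher in KO hearts (Nppa, Nppb, Acta1, Ctgf, Uchl1 and Fhl1) and 1 was called lower (Xirp2) at an adjusted p below 0.05 by edgeR's quasi-likelihood test. Ankrd1, Rcan1 and Xirp1 were not called. Across all tested genes 51.4% were called, 26.2% higher and 25.2% lower. The median log2 fold change was 0.47 over the 10 genes and -0.01 over all tested genes. With the GC and length trends removed, the same 6 were called higher and Xirp2 lower, against 38.7% of all tested genes, 19.1% higher and 19.7% lower. These shares are the background for the counts of called genes in each list and marker set below. In bulk tissue, more cells of a type and more RNA per cell cannot be told apart.

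**Figure D1:**
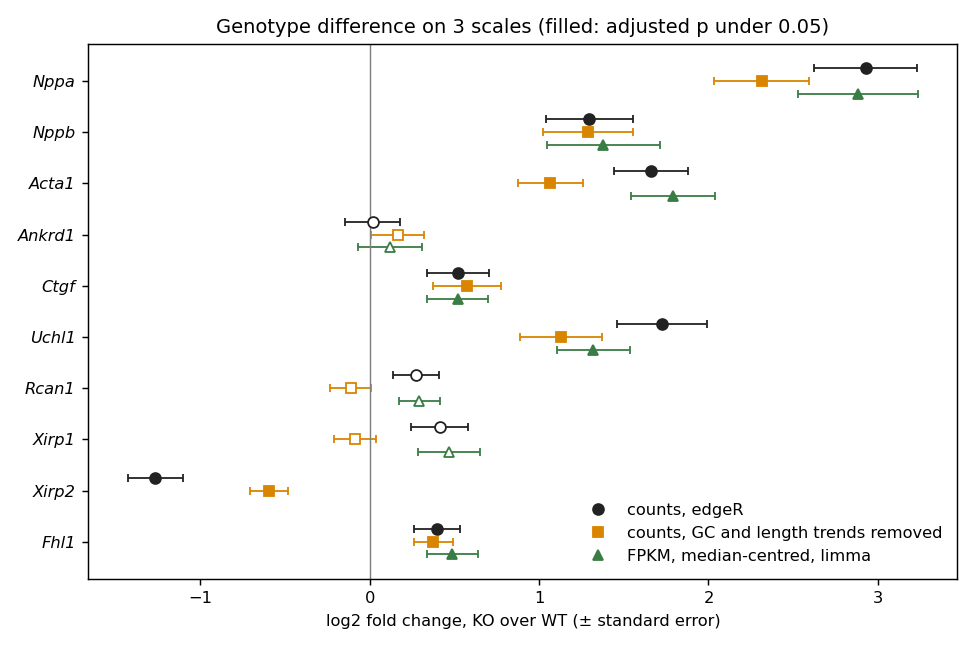
Log2 fold change, KO over WT, of each gene with its SE on 3 scales: read counts (edgeR), read counts with GC and length trends removed, and median-centred FPKM (limma). Filled points have an adjusted p below 0.05, and the FPKM value of Xirp2 is left out because 4 hearts list it at 0. Nppa lies farthest above 0 on all 3 scales and Xirp2 lies below 0 on both count scales.

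Nppa encodes atrial natriuretic peptide. Its level, as CPM (reads scaled to library depth, with TMM factors), was 133, 171, 304 and 473 in KO1 to KO4, against 40.8, 32.3, 21.6, 40.2 and 39.6 in WT1 to WT5. Every KO heart stood above every WT heart, and KO4 stood highest by a wide margin. The fitted log2 fold change was 2.93 ± 0.30 (adjusted p = 7.98e-06, edgeR), a fold of 7.61, and it was 2.32 ± 0.28 with the GC and length trends removed (adjusted p = 4.33e-05, edgeR). By fold change Nppa ranked 8 among the tested genes as fitted and 10 after the correction. In FPKM it averaged 515 ± 269 in KO hearts (SD, n = 4) and 47.0 ± 18.8 in WT hearts (SD, n = 5), again without overlap.

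Nppb encodes B-type natriuretic peptide, the ventricular hormone measured in the clinic as a marker of heart failure. It stood at 95.3, 86.7, 177 and 189 CPM in KO hearts, against 54.6, 27.1, 60.4, 68.3 and 65.1 CPM in WT hearts. The groups did not overlap, but the gap was narrow, between KO2 and WT4. The log2 fold change was 1.30 ± 0.26 (adjusted p = 0.000755, edgeR) and stayed at 1.29 ± 0.27 after the correction (adjusted p = 0.00186, edgeR). Nppa reads per Nppb read were 1.40, 1.97, 1.71 and 2.50 in KO hearts, against 0.747, 1.19, 0.358, 0.588 and 0.608 in WT hearts. The ratio was thus higher in every KO heart than in any WT heart. WT2 also had more Nppa than Nppb reads, but its ratio rests on 93 and 78 reads. Their exact 95% Poisson intervals, for counting error only, are 75.1 to 114 and 61.7 to 97.3. Nppa has a transcript GC content of 55.3% and Nppb of 47.9%, and a ratio of uncorrected reads carries that difference.

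Since atrial muscle is rich in Nppa, atrial markers were read beside it. The 7 atrial markers summed to 20.2 to 33.6 CPM in KO hearts and 24.2 to 38.1 CPM in WT hearts, so the groups overlapped and the sum was no higher in KO hearts. Most of that sum is Nr2f2 and Gpr22, with means of 14.6 and 6.30 CPM in KO hearts and 14.0 and 13.4 CPM in WT hearts. Sarcolipin (Sln) was at 0 in every KO heart, and atrial myosin light chain (Myl7) did not exceed 1.002 CPM in KO hearts or 0.852 CPM in WT hearts. Of the 4 atrial markers tested, only Gpr22 was called. Its log2 fold change was -1.12, and it was -0.29 and no longer called after the correction (adjusted p = 0.283, edgeR). Dkk3, Myl4 and Nr2f2, all uncalled, had log2 fold changes of 0.55, 0.28 and 0.12. The median of the 4 was 0.20, or 0.30 after the correction. Ventricular markers were present in all hearts, at a summed 61929 to 69445 CPM in KO hearts and 44162 to 49145 CPM in WT hearts, and 4 of 7 were called higher in KO, though 1 was higher and 1 lower after the correction.

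The peptide genes lie side by side on chromosome 4 (Nppb at chr4:147985788-147987205 and Nppa at chr4:148000722-148002079, plus strand, GRCm38 with GENCODE vM21 genes). Below are the 250 bases before the RefSeq start site (GRCm38.p6, 5′ to 3′ on the gene's strand) of these genes and, for comparison, of Acta1, which also rose, and Ankrd1, which was not called. They are shown because Nppa, Nppb and Acta1 are the textbook genes of the fetal programme, while Ankrd1 is a gene of muscle stretch that did not pass the test. Capitals mark the searched motifs: GATA sites (AGATAA or TGATAA), the TEAD site called MCAT (CATTCC), the Nkx2-5 site (AAGTGA) and the CArG box of serum response factor on both strands, and the TATA box (TATAAA) on the gene's strand.
Nppa, chr4:148000472-148000721 (+): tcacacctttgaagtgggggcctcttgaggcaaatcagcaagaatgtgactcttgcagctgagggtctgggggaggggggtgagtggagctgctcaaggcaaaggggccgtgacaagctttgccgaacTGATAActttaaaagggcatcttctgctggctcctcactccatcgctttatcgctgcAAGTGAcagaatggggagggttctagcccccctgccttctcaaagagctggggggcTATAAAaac
Nppb, chr4:147985650-147985899 (+): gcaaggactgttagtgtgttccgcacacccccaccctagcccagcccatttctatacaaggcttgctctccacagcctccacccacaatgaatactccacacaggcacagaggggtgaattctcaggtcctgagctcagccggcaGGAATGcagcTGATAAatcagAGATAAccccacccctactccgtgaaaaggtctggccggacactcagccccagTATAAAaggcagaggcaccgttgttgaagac
Acta1, chr8:123894776-123895025 (-): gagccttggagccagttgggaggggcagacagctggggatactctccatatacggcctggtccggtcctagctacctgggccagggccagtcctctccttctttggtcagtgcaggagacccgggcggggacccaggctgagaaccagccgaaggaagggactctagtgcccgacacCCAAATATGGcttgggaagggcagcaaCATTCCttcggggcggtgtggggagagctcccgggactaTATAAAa
Ankrd1, chr19:36119845-36120094 (-): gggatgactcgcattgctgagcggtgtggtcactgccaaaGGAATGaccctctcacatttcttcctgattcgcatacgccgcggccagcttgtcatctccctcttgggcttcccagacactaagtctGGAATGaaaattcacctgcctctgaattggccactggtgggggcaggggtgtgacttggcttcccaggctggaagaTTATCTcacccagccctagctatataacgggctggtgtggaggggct
For Nppb and Ankrd1 the RefSeq start lies inside the gene that GENCODE annotates, because GENCODE includes a transcript that begins farther upstream.

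A GATA match stood 122 bases before the start of Nppa, 95 and 84 bases before that of Nppb and 47 bases before that of Ankrd1. Matches to the MCAT letters stood at 105 bases in Nppb, at 46 in Acta1, and at 210 and 123 in Ankrd1, while the CArG match of Acta1 stood at 73. Of 32851 mouse promoter windows of this length, 16.6% held a GATA match, 12.6% MCAT, 13.6% the Nkx2-5 letters, 7.59% TATA and 1.47% CArG. RefSeq windows were found for 8 of the 10 genes, 10 windows in all. Among these 10 windows 3 held a GATA match, 3 MCAT, 3 the Nkx2-5 letters, 3 TATA and 2 a CArG match, the second being in Fhl1. No matches overlapped. Ankrd1 carries GATA and MCAT letters as Nppb does. The part of any of these matches in the genotype differences was not tested.

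Acta1, skeletal muscle alpha-actin (chr8:123891769-123894751, minus strand), had 800.0, 1136, 932 and 1301 CPM in KO hearts, against 399, 319, 475, 263 and 195 CPM in WT hearts. All KO hearts lay above all WT hearts. The log2 fold change was 1.66 ± 0.22 (adjusted p = 4.01e-05, edgeR), or 3.16-fold, and 1.07 ± 0.19 after the correction (adjusted p = 0.000678, edgeR). In FPKM Acta1 averaged 1015 ± 169 in KO hearts (SD, n = 4) and 219 ± 85.8 in WT hearts (SD, n = 5). Actins are near-identical in coding sequence, so some reads may have been shared between them. Actc1, the cardiac alpha-actin, had a log2 fold change of -0.06 ± 0.16 (adjusted p = 0.770, edgeR), or -0.31 after the correction (adjusted p = 0.0723, edgeR). Skeletal muscle markers also differed: 3 of the 4 tested were called higher in KO, Myh2 by 3.82 ± 0.59, Myh4 by 1.76 ± 0.43 and Ckm by 0.80 ± 0.16, and all 3 stayed called after the correction, at 3.61, 1.597 and 0.45. The list of 8 summed to 1461 to 2026 CPM in KO hearts and 680 to 1167 CPM in WT hearts. Nearly all of that sum is Ckm, creatine kinase, which heart muscle also makes, with a mean of 1647 CPM in KO hearts and 947 CPM in WT hearts, while Myh2 averaged 14.3 CPM in KO hearts and 1.23 CPM in WT hearts. Their part in the Acta1 difference was not tested.

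**Figure D2:**
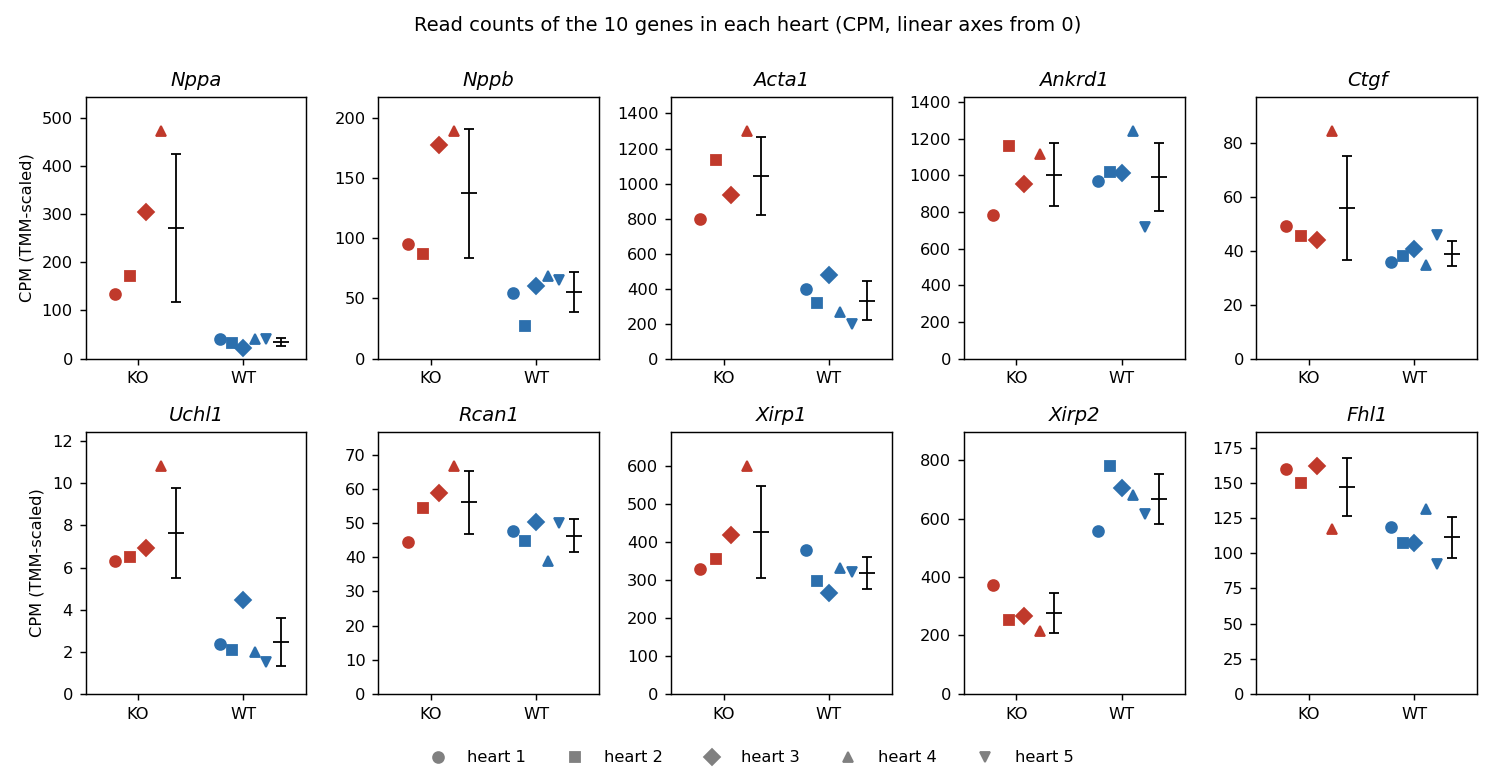
Level of each of the 10 genes in CPM, 1 point per heart, KO left of WT, with group mean and SD (4 KO and 5 WT hearts). Nppa, Nppb, Acta1 and Uchl1 lie higher in every KO heart than in any WT heart, and Xirp2 lies lower in every KO heart.

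Ankrd1, the stretch-sensitive cardiac ankyrin repeat protein that binds titin (chr19:36111961-36120099, minus strand), did not separate the groups. It had 784, 1160.3, 953 and 1119 CPM in KO hearts, against 969.8, 1019, 1010.5, 1243 and 718 CPM in WT hearts. The highest and the lowest of the 9 hearts were both WT. Its log2 fold change was 0.02 ± 0.16 (adjusted p = 0.939, edgeR) and 0.17 ± 0.16 after the correction (adjusted p = 0.431, edgeR).

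Fhl1, a LIM-domain protein of the titin N2B stretch sensor (chrX:56731787-56793346, plus strand), had 160.0, 149.6, 162 and 117 CPM in KO hearts, against 119, 107, 108, 131 and 92.04 CPM in WT hearts. KO4, the lowest KO heart, fell among the WT hearts. The log2 fold change was 0.40 ± 0.14 (adjusted p = 0.0225, edgeR) and 0.38 ± 0.12 after the correction (adjusted p = 0.0184, edgeR). The call was lost without KO1, KO2, KO3 or WT5, at adjusted p values of 0.0515, 0.0509, 0.0751 and 0.0734 by edgeR. It was also lost with the replicate number as a block, where the log2 fold change was 0.33 and the adjusted p 0.143.

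The Xin repeat proteins Xirp1 and Xirp2 bind actin at the intercalated disc, and their genes did not move alike. Xirp1 (chr9:120013755-120023598, minus strand) had 329.9, 356, 418 and 599 CPM in KO hearts, against 379, 297, 267, 332 and 321 CPM in WT hearts. The groups overlapped, and KO4 alone stood well above the others. The log2 fold change was 0.41 ± 0.17 (adjusted p = 0.0503, edgeR) and -0.08 ± 0.12 after the correction (adjusted p = 0.621, edgeR). Xirp1 passed the threshold in 6 of 18 alternative settings, among them DESeq2, at an adjusted p of 0.0410.

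Xirp2 (chr2:67446002-67526614, plus strand) had 374, 254, 267 and 215 CPM in KO hearts, against 558, 779, 705, 679.9 and 616 CPM in WT hearts. Every KO heart lay below every WT heart. It fell by 1.27 on the log2 scale (SE 0.16, adjusted p = 3.33e-05, edgeR), and after the correction the log2 fold change was -0.59 ± 0.11 (adjusted p = 0.000983, edgeR). Its transcript is the richest in AT of the 10, with a GC content of 42.2%. The FPKM table cannot be read for this gene: it lists Xirp2 at 0 in KO1, WT1, WT2 and WT4, where the count table holds 7880, 12440, 2246 and 9681 reads. In the other hearts the FPKM were 26.1, 27.5 and 20.8 in KO2, KO3 and KO4, against 42.1 in WT3 and 39.1 in WT5.

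Ctgf, a secreted matrix protein that is a target of YAP and of TGF-beta (listed as Ccn2 in GENCODE, chr10:24595442-24598683, plus strand), had 49.2, 45.4, 43.8 and 84.4 CPM in KO hearts, against 35.6, 37.8, 40.6, 34.5 and 45.8 CPM in WT hearts. KO4 stood far above the rest, KO1 lay just above all WT hearts, and KO2 and KO3 lay below the highest WT heart, WT5. On the log2 scale the difference was 0.52 ± 0.18 (adjusted p = 0.0260, edgeR) and 0.57 ± 0.20 after the correction (adjusted p = 0.0352, edgeR). Without KO4 it was 0.26, with an adjusted p of 0.108 by edgeR. The call was also lost without WT1, WT2 or WT4, at adjusted p values of 0.0524, 0.0534 and 0.0701 by edgeR. Of 8 fibroblast markers, 3 were called higher and 3 lower, or 1 and 1 after the correction, and their sum was 591 to 1052 CPM in KO hearts and 552 to 717 CPM in WT hearts. Endothelial markers were called higher in 2 and lower in 2 of 6, or 2 and 1 after the correction. Smooth muscle and pericyte markers were called higher in 1 and lower in 1 of 6, or 1 and 0 after it, and immune markers in 2 and 1 of 5, or 0 and 1 after it.

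Uchl1, a deubiquitinating enzyme best known from neurons (chr5:66676091-66687234, plus strand), was the lowest of the 10. It had 6.32, 6.50, 6.93 and 10.8 CPM in KO hearts, against 2.38, 2.08, 4.44, 1.97 and 1.51 CPM in WT hearts. All KO hearts lay above all WT hearts, although the counts were small, with 108 to 151 reads in KO hearts and 6 to 53 in WT hearts. The 6 reads of WT2 have an exact 95% Poisson interval of 2.20 to 13.1, which covers counting error only. The log2 fold change was 1.73 ± 0.27 (adjusted p = 0.000122, edgeR) and 1.13 ± 0.24 after the correction (adjusted p = 0.00236, edgeR). Neuronal and Schwann cell markers, which mark other cells that express Uchl1, were not higher: the 7 summed to 6.27 to 9.73 CPM in KO hearts and 9.504 to 20.1 CPM in WT hearts, the 1 called of 3 tested was lower in KO (2 lower after the correction), and Th was at 0 in all hearts.

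Rcan1, a calcineurin inhibitor whose own transcription is driven by calcineurin through NFAT (chr16:92391953-92470867, minus strand), had 44.5, 54.3, 58.7 and 66.6 CPM in KO hearts, against 47.7, 44.7, 50.3, 38.8 and 50.1 CPM in WT hearts. KO2, KO3 and KO4 lay above all WT hearts and KO1 lay among them. Its log2 fold change was 0.28 ± 0.14 (adjusted p = 0.09999, edgeR) and -0.11 ± 0.12 after the correction (adjusted p = 0.493, edgeR).

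GC content and length were corrected together, and their parts were not separated. Nppa, Acta1, Uchl1, Rcan1 and Xirp1, at 54.5% to 57.0% GC, moved by -0.61 to -0.39 on the log2 scale. Nppb, Ankrd1, Ctgf and Fhl1, at 47.9% to 50.0%, moved by -0.02 to 0.15, and Xirp2, at 42.2%, by 0.67. The median transcript of the tested genes had 50.0% GC. Because the libraries kept no strand, reads where exons overlap those of an antisense neighbour cannot be assigned to either gene by strand, and how the authors counted them is not stated. This concerns Nppa (532 exonic bases shared with Gm13054), Ctgf (665 with Gm15270), Uchl1 (295 with Uchl1os) and Xirp2 (168 with Gm13601).

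The deposited FPKM values gave 8 of the 10 genes as called, all of them higher in KO hearts, by limma on log2(FPKM + 1), a scale that understates the change of low genes. The exceptions were Ankrd1 and Xirp2. Of all tested genes 53.3% were called, 47.2% higher and 6.09% lower, and the median over all genes was shifted by 0.44. After each heart had been centred on its median, 6 of the 10 were called, all higher, against 53.9% of all tested genes, 25.4% higher and 28.4% lower. Rcan1 and Xirp1 then missed the threshold, at log2 fold changes of 0.29 and 0.47 and adjusted p values of 0.0647 and 0.0523 by limma. In levels per length, the KO order by mean FPKM was Acta1 (1015), Ankrd1 (776), Nppa (515), Nppb (286), Xirp1 (90.7), Fhl1 (84.0), Rcan1 (32.8), Ctgf (30.5) and Uchl1 (9.74). In WT hearts it was Ankrd1 (527), Acta1 (219), Nppb (80.5), Xirp1 (47.4), Nppa (47.0), Fhl1 (43.3), Rcan1 (18.8), Ctgf (14.3) and Uchl1 (2.11). In KO hearts the neighbours in this order with ranges that did not overlap were Nppb and Xirp1, Fhl1 and Rcan1, and Ctgf and Uchl1. In WT hearts these were Ankrd1 and Acta1, Acta1 and Nppb, Fhl1 and Rcan1, and Ctgf and Uchl1. Xirp2 is left out of both orders.

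In CPM, 4 of the 10 genes stood higher in every KO heart than in any WT heart, 1 stood lower in every KO heart and 5 overlapped. Over all tested genes 22.3% stood entirely above, 19.3% entirely below and 41.6% in either direction.

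Within the KO group many of the 10 genes were highest in the same heart, but the set did not vary as one. Of its 45 pairs, 8 lay on the same side of the genotype mean in all 4 KO hearts and 14 in only 0 or 1. Each heart's log2 CPM was set against the mean of its genotype, with no test, since 4 and 5 hearts are too few for a correlation. KO4 held the highest KO value of 7 of the 10 genes, against 37.2% of all tested genes. The exceptions were Ankrd1, highest in KO2, Xirp2, highest in KO1, and Fhl1, highest in KO3. The median deviation of the 10 genes in KO4 was 0.44, with 8 of them above the mean, against a median of 0.03 over all tested genes. KO1 was the reverse: it held the lowest KO value of 6 genes, against 32.0% of all tested genes, and its median deviation was -0.32. Nppa, Uchl1, Rcan1 and Xirp1 ran in the order KO4, KO3, KO2, KO1, as did 9.52% of tested genes.

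The GC slope matched this order only at its ends, being steepest in KO4 at 0.63 and flattest in KO1 at 0.15. In between, it was steeper in KO2 (0.42) than in KO3 (0.37). Its part in the pattern was not tested. With the GC and length trends removed, KO4 held the highest KO value of 8 genes, against 34.4% of all tested genes, and the median deviation of the 10 genes in KO4 was 0.32. KO1 then held the lowest KO value of 4 genes, against 30.2% of all tested genes, with a median deviation of -0.19. The full order KO4, KO3, KO2, KO1 was then kept by Nppa and Rcan1. Xirp2 and Fhl1 were lowest in KO4 both before and after the correction.

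**Figure D3:**
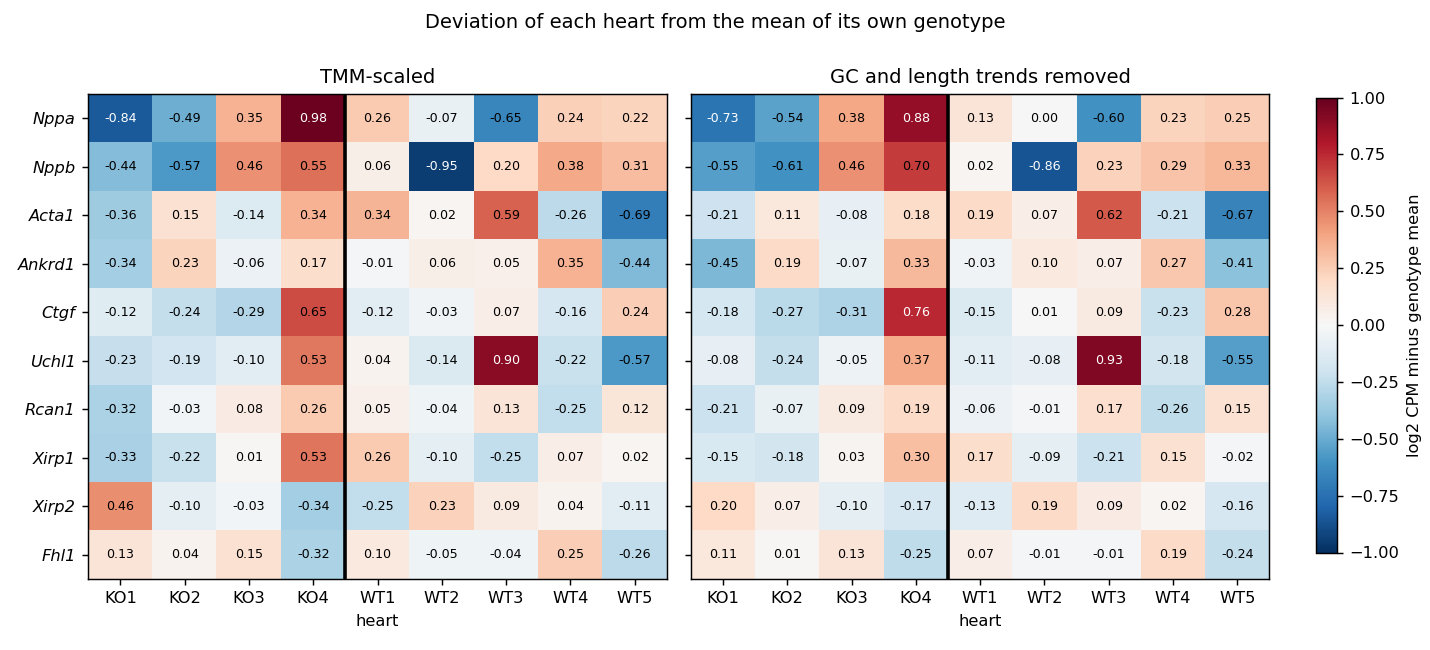
Log2 deviation of each of the 10 genes from the mean of its own genotype, 1 column per heart, KO hearts left of WT hearts, for TMM-scaled CPM and for values with the GC and length trends removed. KO4 holds the highest KO value of 7 genes on the first scale and of 8 on the second, against 37.2% and 34.4% of all tested genes. No WT heart holds the highest WT value of more than 3. WT3 and WT4 hold 3 each on the first scale, against 22.9% and 15.5% of all tested genes. WT3 and WT5 hold 3 each on the second, against 24.1% and 15.9%. These shares differ between hearts, so the KO and WT counts cannot be compared directly.

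Nppa varied most of the 10 genes in KO hearts, but not in WT hearts. Its SD over KO hearts was 0.82 on the log2 scale, larger than in all but 1.61% of tested genes, against 0.39 over WT hearts, which 32.3% of genes exceeded. Nppb had an SD of 0.59 in KO hearts, exceeded by 5.76% of genes, and 0.55 in WT hearts. The median gene had an SD of 0.24 in KO hearts and 0.28 in WT hearts. Ctgf was spread over KO hearts (0.44) more than over WT hearts (0.16), and most of that spread was KO4. Acta1 and Uchl1 went the other way, with SDs of 0.31 and 0.36 in KO hearts, against 0.50 and 0.55 in WT hearts. The WT spread of Uchl1 rests on 6 to 53 reads per heart, against 108 to 151 in KO hearts, so it carries more counting error.

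Among WT hearts no single heart held the highest CPM of more than 3 genes. WT3 and WT4 each held the highest value of 3 genes, against 22.9% and 15.5% of all tested genes. Low values were most frequent in WT5, which held the lowest of 4 genes, against 14.9% of all tested genes. After the correction WT5 held the lowest value of 5 genes, against 15.7%, and also the highest value of 3. WT3 combined the highest Acta1 (0.59) and Uchl1 (0.90) deviations with the lowest Nppa (-0.65), whereas WT2 held the lowest Nppb (-0.95) and WT5 the lowest Acta1 (-0.69). WT2 and WT3 are the shallowest libraries.

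Of the 45 pairs among the 10 genes, 8 lay on the same side of the genotype mean in all 4 KO hearts and 2 in all 5 WT hearts. The WT pairs were Nppa with Xirp1 and Ankrd1 with Xirp2. In contrast, 14 pairs shared a side in only 0 or 1 KO heart and 9 in only 0 or 1 WT heart. The same counts over pairs of all tested genes were not computed. Nppa and Xirp1 went together in 9 of 9 hearts, and in 7 of 9 after the correction (4 KO and 3 WT). Nppa and Nppb went together in all 4 KO hearts and 4 of 5 WT hearts, the exceptional heart being WT3, where Nppa was low and Nppb slightly high. Acta1 went with Ankrd1 in 4 of 4 KO hearts and 3 of 5 WT hearts, but with Nppa in only 2 KO hearts and 1 WT heart. Ctgf and Fhl1 went opposite ways in 8 of the 9 hearts. After the correction 8 pairs went together in all KO hearts and 2 in all WT hearts, the WT pairs then being Ankrd1 with Xirp2 and Xirp1 with Fhl1. Pairs together in only 0 or 1 heart then numbered 14 in KO and 6 in WT. Pairs that went together in 8 or 9 hearts numbered 4 before the correction and 0 after it. Nppa and Nppb then went together in 4 KO hearts and 3 WT hearts. On log2 FPKM, which is not centred, 8 pairs went together in all KO hearts and 7 in all WT hearts. With median-centred FPKM the counts were 8 in KO hearts and 2 in WT hearts. Both FPKM scales include Xirp2 with its listed zeros.

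**Figure D4:**
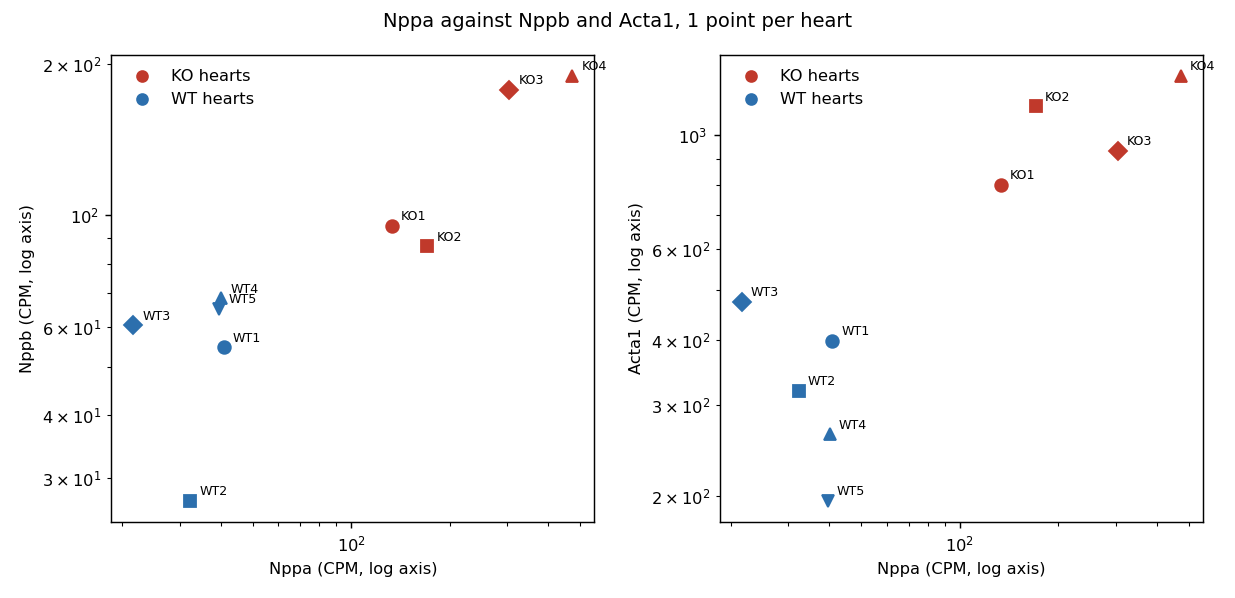
Nppb (left) and Acta1 (right) against Nppa in CPM on log axes, 1 point per heart, KO and WT in different colours. Within KO the hearts KO3 and KO4 are high in both Nppa and Nppb, whereas Acta1 is higher in KO2 than in KO3 although Nppa is lower there.

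Among 12050 genes with at least 1 CPM on average, those whose deviations from the genotype mean over the 9 hearts lay closest to those of Nppa were Adcy3 and E130317F20Rik (mean absolute difference 0.21 each, log2 scale) and Kctd17 and Myo7a (0.22 each). Adcy3 and E130317F20Rik were low genes, at 1.48 and 0.888 CPM in WT3, a shallow library, so their deviations carry counting error. In that heart they deviated by -0.82 and -0.64, beside -0.65 for Nppa. Of the 10 genes Xirp1 came closest, at rank 24, and Nppb came at rank 681. Between genotypes Adcy3, an adenylyl cyclase, differed by 0.59 ± 0.25 (adjusted p = 0.0566, edgeR) and E130317F20Rik by 0.17 ± 0.30 (adjusted p = 0.649, edgeR). Kctd17 rose by 1.04 ± 0.20 (adjusted p = 0.000718, edgeR) and the unconventional myosin Myo7a by 1.27 ± 0.20 (adjusted p = 0.000134, edgeR). After the correction Adcy3 was at 0.12, E130317F20Rik at -0.32, Kctd17 at 0.24 with its call lost, and Myo7a at 0.85.

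Around the peptides, 13 genes of their processing, receptors and cyclic GMP signalling were tested, of which 4 were called higher and 5 lower, or 3 and 2 after the correction. Beside this and the lists that follow, 26.2% of all tested genes were called higher and 25.2% lower, or 19.1% and 19.7% after the correction. Mme, neprilysin, which degrades the peptides, fell by 2.78 on the log2 scale (SE 0.28, adjusted p = 6.87e-06, edgeR), averaging 0.983 CPM in KO hearts and 7.08 CPM in WT hearts, and its log2 fold change was -1.97 after the correction. Corin, the protease that activates the Nppa product, rose by 0.57 ± 0.13 (adjusted p = 0.00186, edgeR), or 0.69 after the correction. The natriuretic peptide receptor gene Npr1 had a log2 fold change of 0.57 ± 0.16 (adjusted p = 0.00989, edgeR). It was -0.02 and no longer called after the correction (adjusted p = 0.903, edgeR). Npr2, the receptor of C-type natriuretic peptide, had a log2 fold change of -0.73 ± 0.16 and the soluble guanylyl cyclase subunit Gucy1b3 one of -0.78 ± 0.18 (adjusted p = 0.00129 and 0.00255, edgeR). After the correction these were -1.16 and -0.34, and the Gucy1b3 call was lost. The clearance receptor Npr3 had a log2 fold change of -0.02 ± 0.21 (adjusted p = 0.954, edgeR), which turned to 0.49 after the correction (adjusted p = 0.0362, edgeR). Nppc was at 0 in all hearts.

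Of 12 genes of the fetal and contractile switch, 5 were called higher and 2 lower, or 3 and 3 after the correction. Myh7, the slow myosin of the fetal ventricle, rose by 2.21 ± 0.58 (adjusted p = 0.00516, edgeR), with 2140 to 4693 CPM in KO hearts and 169 to 1491 CPM in WT hearts, and it stood at 1.77 after the correction. Myh6, the adult fast myosin, rose by 0.55 ± 0.14 (adjusted p = 0.00516, edgeR), and Tnni3, cardiac troponin I, by 0.63 ± 0.14 (adjusted p = 0.00171, edgeR). Both of these calls were lost after the correction, at 0.12 for Myh6 and 0.01 for Tnni3. Pln, phospholamban, the inhibitor of the calcium pump, fell by 1.43 (SE 0.13, adjusted p = 4.59e-06, edgeR), while the pump gene Atp2a2 had a log2 fold change of -0.01 ± 0.15 (adjusted p = 0.952, edgeR). After the correction Pln was at -0.72 and Atp2a2 at 0.16. The potassium channel Kcnd2 had a log2 fold change of -1.01 ± 0.20 and the glucose transporter Slc2a1 one of 0.82 ± 0.16, both called, and they stayed called at -0.55 and 0.49 after the correction.

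The calcineurin and NFAT genes around Rcan1 were called higher in 3 and lower in 5 of 13, or 2 and 2 after the correction. Camk2d, the calcium-dependent kinase, had a log2 fold change of -1.03 ± 0.15, the transcription factor Nfatc3 one of -0.76 ± 0.14, the calcineurin inhibitor Cabin1 one of 0.74 ± 0.16 and the Rcan1 relative Rcan2 one of -0.54 ± 0.12. All 4 were called by edgeR. After the correction Camk2d was at -0.54, Nfatc3 at -0.40, Cabin1 at 0.30 and Rcan2 at -0.23, and Cabin1 and Rcan2 lost the call.

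Among 20 cardiac transcription factors and their regulators, 5 were called higher and 8 lower, or 4 and 7 after the correction. The MCAT-binding factor Tead1 fell by 1.18 (SE 0.13, adjusted p = 9.80e-06, edgeR), and its log2 fold change was -0.81 after the correction. Nkx2-5 rose by 1.14 ± 0.21 (adjusted p = 0.000433, edgeR) and lost the call after the correction, at 0.10. The histone deacetylase Hdac4 rose by 1.10 ± 0.15 and Tbx5 fell by 0.80 (SE 0.15), both called on both scales, at 0.98 and -0.94 after the correction.

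Of 16 stretch and YAP target genes, 6 were called higher and 2 lower, or 3 and 2 after the correction. The receptor kinase Axl rose by 0.95 ± 0.13, Amotl2 by 0.90 ± 0.13 and the TGF-beta receptor Tgfbr2 by 0.52 ± 0.13, and the immediate early gene Egr1 fell by 1.37 (SE 0.29). Of 20 Z-disc, titin and intercalated disc genes, 8 were called higher and 6 lower, or 7 and 5 after the correction. Here the Ankrd1 relative Ankrd23 rose by 1.42 ± 0.20 and the titin cap Tcap by 1.37 ± 0.15, while the junction protein Tjp1 fell by 1.28 (SE 0.13) and the nebulin relative Nebl by 1.32 (SE 0.20). Each of these 8 was called by edgeR on both scales. After the correction Axl was at 0.58, Amotl2 at 0.38, Tgfbr2 at 0.63 and Egr1 at -1.95. Ankrd23 was then at 0.92, Tcap at 0.46, Tjp1 at -0.97 and Nebl at -0.59.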

How the data were processed

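Polyadenylated RNA was sequenced as single-end libraries that keep no strand, per the labels' protocols. The authors deposited raw read counts per gene and, in a second table, FPKM values for the same hearts. The submitters' processing notes name mm10 and the programs TopHat2 2.0.10, TopHat, Bowtie2, Cufflinks 2.1, HTSeq, edgeR and DESeq, without order or role.

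Counts were tested with edgeR 4.0.16 in R 4.3.3 (TMM, default filter by group with at least 10 reads and 15 in total, quasi-likelihood F test, SE from the F statistic). FPKM were tested with limma 3.58.1 on log2(FPKM + 1), where the mean reached 0.5 FPKM. Benjamini-Hochberg adjustment ran over all genes tested, at 0.05. For the correction, lowess trends (span 0.3) with GENCODE vM21 transcript GC content and then length were fitted in each heart and used as offsets, so a true difference that follows either is removed too. Deviations within a genotype use log2 CPM with a prior count of 2. Only the main edgeR and limma fits were run on simulated data, which had known changes in some genes and no GC trend. The correction, the replicate block, DESeq2 and the comparison within a genotype were not simulated.

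The 10 genes and all lists were chosen with earlier results of these data known. Besides the 10, the text names up to 4 called genes per list with the smallest p, Myh6, Myh7, Atp2a2, Npr3 and the 4 genes most like Nppa. Actc1, Park2 and the cell type markers are named as checks, and Npr1 as a further receptor of its list. Alternatives were RLE factors, other filters, DESeq2 1.42.0, the replicate block, the correction, omission of mitochondrial genes and Rn45s, other FPKM settings, each heart left out in turn and both shallow WT hearts left out.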

Additional observations from a re-analysis of the deposited data

Results flagged for a closer look

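In KO hearts, KO4 stood apart from the others in 3 of the 40 groups of values examined. Ctgf had 84.4 CPM in KO4, against 43.8 to 49.2 CPM in the other KO hearts. Uchl1 had 10.8 CPM in KO4, against 6.32 to 6.93 CPM in the others, and its FPKM were 13.1, against 8.33 to 8.90. In each case the gap to the next heart took up most of the range. Chance flags about 1 in 20 groups. The part that KO4's library plays in these values was not tested.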

How the results depend on the processing

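Across the alternatives, Nppa, Nppb, Acta1, Uchl1 and Xirp2 kept their direction and call in 18 of 18 count settings. Of 180 values of the 10 genes, 161 stayed on the same side of the threshold with the same direction or remained uncalled, 12 lost the call, 7 gained it and 0 called values changed sign. With 1 heart left out in turn, 6 to 8 of the 10 were called in counts and 8 to 9 in FPKM. All genes called numbered 5594 to 6752 and 5643 to 7353 in those fits. Without WT2 and WT3, 5 of the 10 were called, beside 5827 of all genes tested. Ctgf and Fhl1 were then not called. The replicate numbers are not stated to pair hearts. Once each gene's genotype mean had been subtracted, the deviations of same-numbered hearts correlated over genes at -0.11, 0.04, -0.06 and -0.26. With so few hearts these values cannot settle whether hearts were paired. With the replicate block, 6 of the 10 and 5030 genes were called in counts, and 8 and 5306 in FPKM. The replicate block with the GC and length correction called 3540 genes, against 6503, and a minimum mean of 5 FPKM called 4141, against 6730. With log2 FPKM, WT1 held the highest WT value of 5 of the 10 genes, and of 56.6% of all tested genes. In CPM no WT heart held the highest value of more than 3 of the 10. Npr3 turned to 0.49 with the GC and length correction. The cause of these changes was not tested. Depth limits Uchl1 most, with 6 reads in WT2. The alternatives to the comparison of hearts within a genotype were chosen after seeing the data.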
